A study of Mus musculus with 16 samples.

Results

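The genes for the proteins of the cytosolic ribosome were followed through 16 ChIP-seq island lists from 3T3-L1 cells, a mouse preadipocyte line that turns into fat cells in culture. Members were the protein-coding genes of the GENCODE annotation of mm9 whose symbol was Rpl or Rps followed by a number and an optional letter, with pseudogene symbols and the ribosomal S6 kinases left out. The rule gave 76 of 22367 protein-coding genes, 45 for the large subunit (Rpl) and 31 for the small subunit (Rps), on 19 chromosomes. The rule used gene type and symbol and no measured value, but it was set with earlier results of these data known. A gene was counted as overlapped when an island shared at least 1 base with its body or the 2 kb on either side.

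A ribosome joins a small subunit, which reads the mRNA, to a large subunit, which forms the peptide bond. The subunits hold nearly all of these proteins in equal number, and the genes are mostly short, contain introns and are highly transcribed in growing cells. Many of them carry small nucleolar RNAs in their introns, and most have processed pseudogene copies elsewhere in the mouse genome.

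The study asked where SETD5, a SET domain protein found with the NCoR-HDAC3 co-repressor, sits on chromatin early in adipogenesis, and what its forced expression does to H3K27 acetylation. H3K27ac, a mark of active promoters and enhancers, was mapped in preadipocytes stably transduced with an empty retrovirus (empty vector) or with SETD5, before (0 h) and 48 h after induction by the adipogenic cocktail of methylisobutylxanthine, dexamethasone and insulin, with 2 libraries per group named A and B. SETD5-V5 was precipitated with an antibody to the V5 tag at 0 h and 6 h of the same induction (2 libraries per time). H3K4me1, found at enhancers whether primed or active (0 h and 48 h), and endogenous SETD5 (0 h and 6 h) had 1 library per time, so their values have no replicate check. The labels' virus field reads "-" for both SETD5-V5 libraries A and for endogenous SETD5, and names the tagged construct for both SETD5-V5 libraries B and for H3K4me1. Each virus-carried SETD5 was read out from a weak retroviral promoter, not from its own locus. V5 precipitation from untagged cells, H3K4me3 and transcript levels were not analysed here, so background of the V5 antibody and the activity of each gene were not measured.

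The lists held 31292 to 39949 islands for H3K27ac, 6666 to 35573 for SETD5-V5, 49926 to 50276 for H3K4me1, and 2132 at 0 h and 3293 at 6 h for endogenous SETD5. SETD5-V5 0 h library B stood apart with 6666 islands against 16054 in library A, so the main SETD5-V5 results are also given library by library. In bulk cells, SETD5 in fewer cells and less SETD5 per cell cannot be told apart. The lists hold no read counts, and absence from a list means only that a region did not reach the caller's threshold. Chromatin was sheared into longer fragments and islands were joined over wider gaps for SETD5 than for H3K27ac, so lengths are compared only within a mark. All 8 preadipocyte and fibroblast markers had H3K27ac over the gene start in each of the 8 H3K27ac libraries. Of 5 adipocyte markers, 2 had it at 0 h in each library, 5 at 48 h in empty vector and 4 at 48 h in SETD5 cells, where Adipoq lacked it. Markers of blood, muscle, neurons and epithelium were at 0, and of the liver pair Apoa2 had it in both empty vector B libraries and Alb in none.

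To place the members on the genome, the DNA around the annotated gene start is shown for the 4 that had the longest mean 6 h SETD5-V5 islands among those present in all 4 SETD5-V5 lists, and for Rpl10l and Rpl39l, which had no island of any kind. A contrast of members with H3K27ac but without SETD5-V5 in any list was planned and held no gene, and the last pair was chosen in its place after the values were seen. Each stretch runs from 95 bases before the start through the first 25 transcribed bases of the outermost annotated transcript, 5′ to 3′ on the gene's strand in mm9. Capitals mark exact matches on either strand to the ETS and GABP motif CCGGAAG, the YY1 motif AAGATGG and the SP1 motif GGGCGG, and a pyrimidine run (CTTTC or CTTTT, sense strand) within 10 bases of the start, the kind of sequence at which ribosomal protein transcripts are known to begin. The stretches are Rpl30 at chr15:34373371-34373490, minus strand, Rpl3 at chr15:79913812-79913931, minus strand, Rps10 at chr17:27773550-27773669, minus strand, Rpl37 at chr15:5066518-5066637, plus strand, Rpl10l at chr12:67385364-67385483, minus strand, and Rpl39l at chr16:10170224-10170343, plus strand.
Rpl30: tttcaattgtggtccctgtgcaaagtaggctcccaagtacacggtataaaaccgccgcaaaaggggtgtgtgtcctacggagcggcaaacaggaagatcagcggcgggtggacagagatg
Rpl3: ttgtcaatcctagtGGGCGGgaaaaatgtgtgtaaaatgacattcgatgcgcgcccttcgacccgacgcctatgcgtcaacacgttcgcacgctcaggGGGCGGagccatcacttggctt
Rps10: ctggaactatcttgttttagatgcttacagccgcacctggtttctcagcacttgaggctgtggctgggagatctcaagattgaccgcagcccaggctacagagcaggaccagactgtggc
Rpl37: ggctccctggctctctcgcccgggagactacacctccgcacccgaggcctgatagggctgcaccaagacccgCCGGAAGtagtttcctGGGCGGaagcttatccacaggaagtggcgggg
Rpl10l: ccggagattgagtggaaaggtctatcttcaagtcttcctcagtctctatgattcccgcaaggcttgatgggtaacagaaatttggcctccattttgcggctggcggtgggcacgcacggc
Rpl39l: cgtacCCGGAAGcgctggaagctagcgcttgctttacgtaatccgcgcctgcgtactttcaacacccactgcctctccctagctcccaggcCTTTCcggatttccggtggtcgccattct

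Rpl3, whose product lies near the peptide-bond-forming centre, showed 2 SP1 matches, and Rpl37 showed 1 ETS match and 1 SP1 match. Rpl30 and Rps10 showed none in these stretches, while Rpl39l, without any island, showed 1 ETS match and 1 pyrimidine run. Over windows of 300 bases (250 before the start and 50 from it on), the ETS motif was in 21 of 76 members (27.6%), in 19.7% of the 9637 protein-coding genes with H3K27ac over the start at 0 h in both empty vector libraries (called start-acetylated genes below), and in 10.8% of all protein-coding genes. The YY1 motif was in 9 members (11.8%; 7.63% of start-acetylated and 6.73% of all genes), and the SP1 motif was in 35 members (46.1%; 64.5% and 43.4%). The TATA motif TATAAA was in 8 members (10.5%; 6.59% and 13.4%), also on either strand, as for the next 3 motifs. The C/EBP motif TTGCNNAA was in 6 (7.89%; 7.99% and 10.3%), the AP-1 motif TGANTCA in 4 (5.26%; 4.45% and 6.93%) and the TEAD motif GGAATG in 10 (13.2%; 11.6% and 13.4%). A pyrimidine run lay at 7 annotated member starts (9.21%; 4.42% of start-acetylated and 5.0% of all genes). Outermost annotated starts need not be the sites most used in these cells, and a match is a description of the letters only.

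H3K27ac covered nearly every member in every condition. An island overlapped 74 of 76 members (97.4%) in all 8 H3K27ac lists, against a background of 48.5% of all protein-coding genes. The 2 exceptions were Rpl10l and Rpl39l, paralogues of Rpl10 and Rpl39 known for expression in the testis, which were absent from all 16 lists. No member gained or lost H3K27ac between any pair of groups, so the share differed by 0 percentage points in all 4 comparisons (two-sided exact permutation test, 2 against 2 libraries, p = 1.00 each). Few of all 22367 protein-coding genes did. Over time 520 gained and 484 lost it in empty vector cells, and 423 and 341 in SETD5 cells. For SETD5 against empty vector the counts were 202 and 90 at 0 h and 361 and 183 at 48 h. Islands lay over the start (500 bases either side) in 94.1% ± 0.930 of members in empty vector cells at 0 h (SD, n = 2), and over the gene end in 27.6% ± 5.58. All protein-coding genes were at 45.1% (A) and 44.0% (B) over the start and at 9.21% and 8.03% over the end.

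SETD5-V5 was on part of the set at 0 h and on nearly all of it at 6 h. At 0 h an island overlapped 53 of 76 members (69.7%) in library A and 26 (34.2%) in library B, and at 6 h 74 (97.4%) in A and 72 (94.7%) in B. The mean was 52.0% ± 25.1 at 0 h and 96.1% ± 1.86 at 6 h (SD, n = 2), a difference of 44.1 percentage points that was above the spread within either time. Both 6 h libraries were above both 0 h libraries (two-sided exact permutation test, p = 0.333, the smallest that 2 against 2 libraries allow, so no comparison of this size can pass 0.05). Within letter A the difference was 27.6 points and within letter B 60.5 points. Over all protein-coding genes it was 27.2% and 12.8% at 0 h and 49.9% and 34.3% at 6 h, and over start-acetylated genes it went from 36.7% ± 18.6 to 73.0% ± 18.1.

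**Figure D1:**
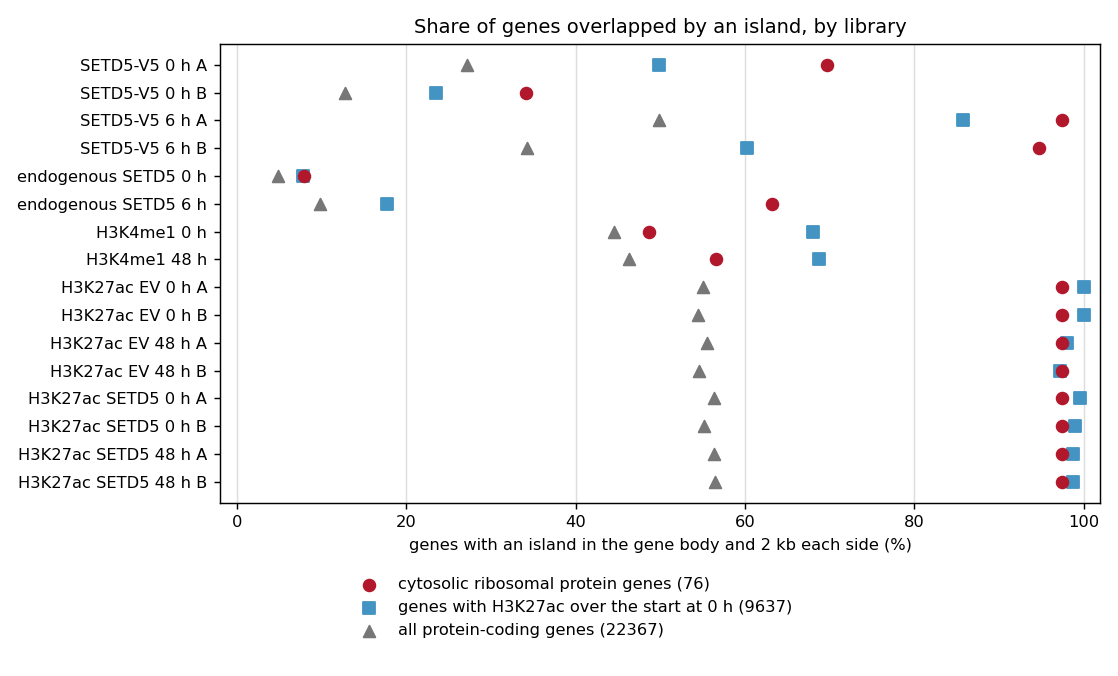
Share of genes (%, horizontal axis) with at least 1 island in the gene body and 2 kb each side in each of the 16 libraries, for the 76 ribosomal protein genes (circles), 9637 start-acetylated genes (squares) and all 22367 protein-coding genes (triangles). The ribosomal protein genes sit at 94.7% and 97.4% in the SETD5-V5 6 h libraries and at 63.2% for endogenous SETD5 at 6 h, while for H3K4me1 they sit below the start-acetylated genes.

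Counted by gene, SETD5-V5 was in both 0 h lists at 25 members (32.9%) against a background of 11.8%, and in both 6 h lists at 72 members (94.7%) against a background of 33.4%. Among start-acetylated genes the shares were 22.3% and 59.6%. The 6 h count held all 31 small-subunit genes and 41 of 45 large-subunit genes, and the 0 h count held 6 and 19 of them. An island in both 6 h lists and neither 0 h list (gained) was found at 18 members (23.7%; background 10.4%, start-acetylated 1544 of 9637). No member lost SETD5-V5, and only 25 of all protein-coding genes did. Within letter A alone 21 of 76 members gained it, beside 5275 of all 22367 protein-coding genes. Within letter B alone 46 members and 5050 of all genes did. Rpl29 and Rpl36a, both of the large subunit, had an island in the 6 h A list only.

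The longest mean 6 h length was at Rpl30, a large-subunit protein gene, with 10000 bp in A and 9800 bp in B at 0 h and 20600 and 19000 bp at 6 h. Both 6 h values were above both 0 h values. Rps15a, for a small-subunit protein, had no island at 0 h and 19600 and 17600 bp at 6 h, in both lists over Rps15a and no other protein-coding gene. Its SETD5-V5 islands thus went from absent to among the longest of the set.

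Rpl3 was broad at both times, with 21000 and 13400 bp at 0 h and 21200 and 14600 bp at 6 h, so its times overlapped. Rps10, whose product is ubiquitylated when ribosomes collide, had 17600 and 3800 bp at 0 h and 23200 and 12400 bp at 6 h, and these also overlapped. Rpl37 of the large subunit had 14200 and 8800 bp at 0 h and 19000 and 15400 bp at 6 h, with both 6 h values the higher. Rpl35, at the exit of the nascent chain, had 6400 bp in A only at 0 h and 18600 and 17000 bp at 6 h, also above. Libraries of 1 time could differ more than the means of the times did. Rpl7a had 8600 and 3400 bp at 0 h and 22600 and 8800 bp at 6 h. Both 6 h values were above both 0 h values, the B value narrowly so.

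Other members among the longest were alike in direction. Rpl8, like Rpl3 close to the peptide-bond-forming centre, had 9800 and 4600 bp at 0 h and 18600 and 12200 bp at 6 h. Rpl28, of the large subunit, had 7400 bp in A only at 0 h and 15800 and 14800 bp at 6 h. Rpl13a, whose product can leave the ribosome to silence inflammatory mRNAs, had 5600 and 3600 bp at 0 h and 15200 and 15600 bp at 6 h. In all 3 genes both 6 h values were above both 0 h values.

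The other gained genes with the longest islands were mostly of the small subunit. Rps24, one of the genes mutated in Diamond-Blackfan anaemia, reached 17600 and 14200 bp at 6 h, and Rps3, which lines the mRNA entry channel, reached 16400 and 12400 bp. Both libraries were of like size at these genes. Rps25 had 20600 bp in A, over 3 further genes, but 4200 bp in B, where the island missed the gene body. Rpl34 had 12200 and 7600 bp. Rpl3l, a striated muscle paralogue of Rpl3, was counted as gained through islands of 12200 and 12000 bp that lay over its neighbour Rps2 (chr17:24850601-24862800 in A) and not over its own body.

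**Figure D2:**
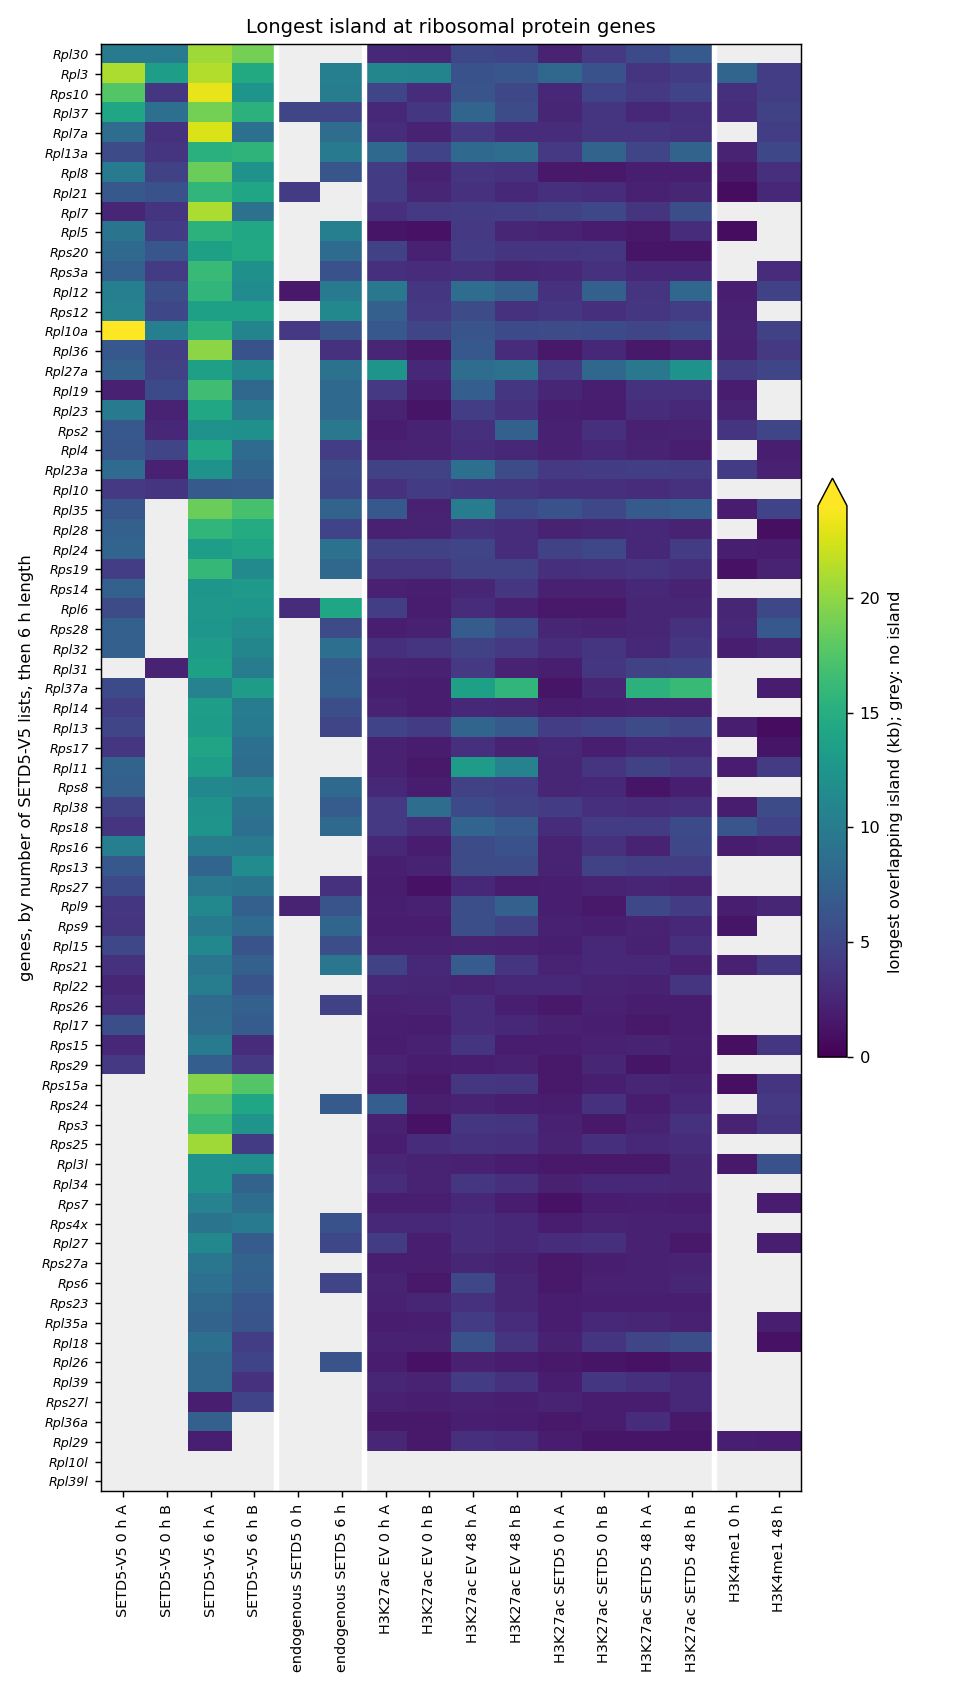
Longest island (kb, colour) overlapping each member shown (rows) in each of the 16 libraries (columns), grey where there was none, with genes ordered by the number of SETD5-V5 lists and then by 6 h length. Genes with SETD5-V5 in all 4 lists are at the top, then those in 3 lists and those in 2, and the bottom pair (Rpl10l and Rpl39l) is grey throughout. The colour scale stops short of the 26600 bp of Rpl10a in SETD5-V5 0 h A, which is drawn in the top colour.

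Islands were also longer at 6 h. Among members with an island, the median longest SETD5-V5 island was 6600 bp in A and 4500 bp in B at 0 h, and 12700 and 9800 bp at 6 h. Both 6 h libraries were longer. The mean went from 5550 ± 1485 to 11250 ± 2051 bp (SD, n = 2), a difference of 5700 bp (two-sided exact permutation test, p = 0.333, the smallest possible). Counting only island bases inside the interval, the mean was 3820 bp at 0 h and 6324 bp at 6 h, a difference of 2504 bp. For all protein-coding genes the medians went from 5000 ± 283 to 5700 ± 141 bp. Of the 25 members in all 4 lists, 20 were longer in both 6 h lists than in both 0 h lists (background 49.1% of 2491 genes) and 0 shorter (background 3.97%). Within letter A, 51 of 53 members were longer at 6 h, with a median ratio of 2.06 (75.4% of all genes, ratio 1.55), and within letter B all 26 were, with a ratio of 2.47 (77.4% and 1.74).

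The mean was lower at 6 h at 1 of the 25, Rpl10a, named after its values were seen, with 26600 and 10400 bp at 0 h and 15400 and 10800 bp at 6 h, where the 0 h A island also covered Fance, Tead3 and Tulp1. Members were long without being extreme: 64 of the 72 exceeded the all-gene median mean length of 7100 bp at 6 h, and 0 reached the top 10% (20600 bp or more). By the caller's score, the median member island at 6 h had 4.49% of the islands of its list above it in A and 8.62% in B, against 28.2% and 31.5% for the median overlapped gene. At 0 h these were 20.4% and 33.3% for members and 30.3% and 35.0% for all genes. The 0 h lists are much shorter and hold fewer members, so ranks are read only within a list and not between times.

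SETD5-V5 islands at these short genes (median body 3237.5 bp, all genes 15427 bp) ran from the start through the end and beyond. At 6 h 1 island held the whole gene body at 63 members in A (82.9%) and 40 in B (52.6%), against 20 and 3 at 0 h. For start-acetylated genes whose interval was at most 8761 bp (the members' 75th percentile, 1242 genes), the 6 h shares were 52.8% and 30.0%. At 0 h these genes were at 28.6% and 9.66%, above the members' 26.3% and 3.95%. Over all protein-coding genes the whole-body shares were 2.99% and 1.06% at 0 h and 5.93% and 3.05% at 6 h. At 6 h an island lay over the start at 72 members in A and 56 in B, and over the end at 71 and 70. At 0 h the end was covered more often than the start: 46 against 31 members in A, and 22 against 8 in B.

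Over all protein-coding genes the 6 h shares were 39.1% over the start and 18% over the end in A and 19.9% and 11.3% in B. Among the 1242 short start-acetylated genes they were 81.7% and 65.1% in A and 49.4% and 44.8% in B. At 0 h the short start-acetylated genes had 44.8% over the start and 42.6% over the end in A, and 15.7% and 20.1% in B, so an end share above the start share was not particular to the members in 0 h B. The median centre of the member islands was 4267 bp (A) and 4322 bp (B) downstream of the start at 6 h, and 3716 and 4591 bp at 0 h. Coverage was lopsided: at 6 h in A, 72 members were inside an island 1000 bp downstream of the start and 60 at 8000 bp, against 30 at 2000 bp upstream and 16 at 5000 bp upstream. In B these were 63, 52, 13 and 11. In the same order, members were at 94.7%, 78.9%, 39.5% and 21.1% in A, and start-acetylated genes at 72.3%, 27.2%, 35.5% and 18.6%. In B members were at 82.9%, 68.4%, 17.1% and 14.5%, and start-acetylated genes at 39.9%, 19.3%, 22.8% and 13.2%. Members and start-acetylated genes were thus closer upstream than downstream.

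**Figure D3:**
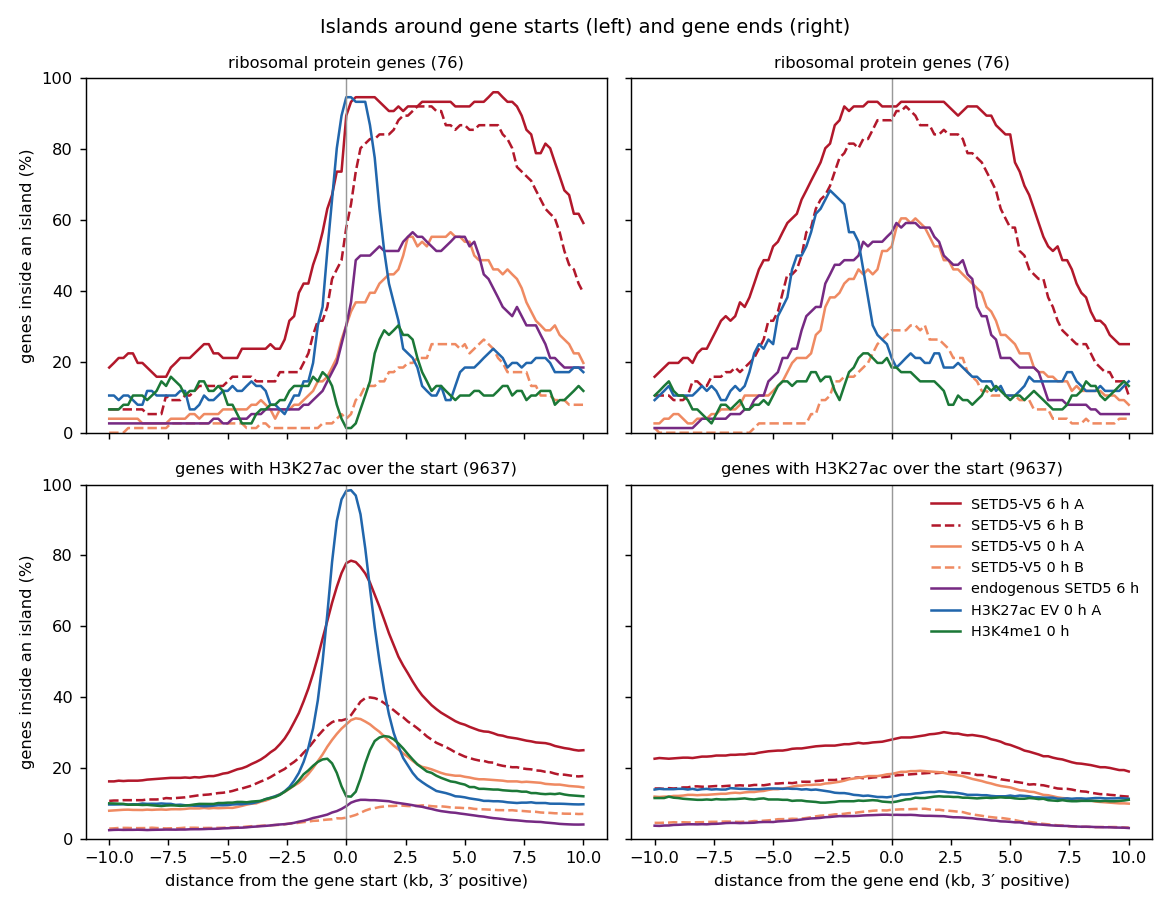
Share of genes inside an island (%, vertical axis) by distance from the annotated start (left) or end (right) in kb, 3′ positive, for the 76 ribosomal protein genes (top) and 9637 start-acetylated genes (bottom), 1 line per library. Over the ribosomal protein genes SETD5-V5 at 6 h forms a plateau from the start to several kb past the end, while H3K27ac in the empty vector 0 h library A shown is at 94.7% at the start and H3K4me1 in the 0 h library shown is at 1.32% there.

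Many members have close neighbours. Another protein-coding gene lay in the interval of 37 members and none in that of 39. Of the 39, SETD5-V5 overlapped 37 in each 6 h list and 25 and 9 at 0 h, and the difference in the mean share was 51.3 points. Their medians were 12200 and 10200 bp at 6 h and 6600 and 5400 bp at 0 h. The longest 6 h island of a member reached into another gene's body at 53 of 74 members in A and at 40 of 72 in B. This was not counted over all protein-coding genes, so it is not read as particular to the members. Where members are neighbours, 1 island can overlap both, and such members are not independent of each other.

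Endogenous SETD5, read with a different antibody, was sparse at 0 h and present at most members at 6 h. An island overlapped 6 of 76 members (7.89%) at 0 h, against a background of 4.84%, and 48 (63.2%) at 6 h, against a background of 9.79% (start-acetylated 17.7%). With 1 library per time there is no test. Of the 48, 43 had no island at 0 h and 5 were present at both times (Rpl37, Rpl12, Rpl10a, Rpl6 and Rpl9). Rpl21 had 4200 bp at 0 h and none at 6 h. All 48 also had SETD5-V5 in both 6 h lists. So did 1918 of the 2190 protein-coding genes with endogenous SETD5 at 6 h, so this was not particular to the members. The combination was found at 8.58% of all protein-coding genes.

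Endogenous SETD5 was more frequent where SETD5-V5 was in more lists. It was present at 6 h at 22 of 25 members in all 4 SETD5-V5 lists, at 20 of 29 in 3 lists, at 6 of 18 in 2 lists and at 0 of the 4 others. All protein-coding genes had the same direction. Of the 2644 with SETD5-V5 in both 0 h lists, 1272 had endogenous SETD5 at 6 h, against 299 of the 16066 with SETD5-V5 in neither. The 6 gained members with endogenous SETD5 included Rps6, the target of S6 kinase, Rpl26, Rpl27, Rps24 and Rps4x. Large-subunit genes had it at 30 of 45 and small-subunit genes at 18 of 31. Its islands at members had a median length of 7000 bp at 6 h. Rpl6, of the large subunit, had the longest at 14200 bp, followed by Rps12 at 11200 bp and by Rpl3 and Rpl5, which binds the 5S rRNA, at 10400 bp each. Of the members named above for SETD5-V5, Rps10 had 10200 bp, Rpl13a had 10000 bp, Rpl8 had 6400 bp and Rpl28 had 4800 bp. Rpl30 and Rps15a, first and second by mean 6 h SETD5-V5 length, had none. The island lay over the end at 47 members and over the start at 38. Over all protein-coding genes the order was reversed, with 899 over the end and 1264 over the start. The 1242 short start-acetylated genes had 274 and 267.

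H3K4me1 at the members was near the background. It overlapped 37 members (48.7%) at 0 h against a background of 44.5%, and 43 (56.6%) at 48 h against 46.3%, both below start-acetylated genes (68.1% and 68.7%). It was present at both times at 32 members, gained at 11, lost at 5 and absent at 28 (1 library per time, no test). Over all 22367 genes it was present at both times at 8512, gained at 1841, lost at 1444 and absent at 10570. Within 500 bases of the start it lay at 12 members (15.8%) at 0 h and 13 (17.1%) at 48 h, close to all genes (15.6% and 18.5%). At the start base itself 1 member (1.32%) was inside an H3K4me1 island at 0 h and 9 (11.8%) at 48 h, against 12% and 17.0% of start-acetylated genes. At 2000 bp downstream 22 and 26 members were, and at 2000 bp upstream 10 and 8. Of the 72 members with SETD5-V5 in both 6 h lists, 36 had H3K4me1 at 0 h and 36 did not. Over all protein-coding genes with SETD5-V5 in both 6 h lists, 6007 had the mark and 1465 did not.

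H3K27ac islands at members were longer after induction in empty vector cells. The median longest island at members was 2600 bp (A) and 2300 bp (B) at 0 h and 4100 and 3400 bp at 48 h, so both 48 h libraries were higher. The mean went from 2450 ± 212 to 3750 ± 495 bp (SD, n = 2), a difference of 1300 bp (two-sided exact permutation test, p = 0.333, the smallest possible). All protein-coding genes went from 2600 ± 283 to 3000 ± 283 bp with overlapping libraries (two-sided exact permutation test, p = 0.667). By gene, 40 of 74 members were longer in both 48 h lists than in both 0 h lists (background 32.3%) and 2 were shorter (background 15.5%).

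In SETD5 cells the members' medians were 2400 and 2800 bp at 0 h and 2800 bp in both libraries at 48 h. The means were 2600 ± 283 and 2800 ± 0 bp, which differed by less than the spread at 0 h (two-sided exact permutation test, p = 1.00). Here 19 of 74 members were longer at 48 h (background 21.2%) and 7 shorter (background 23.6%). The difference between the changes of the 2 cell types was not tested.

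Set side by side at 48 h, SETD5 cells had the shorter islands, 2800 against 3750 bp, a difference of -950.0 bp (two-sided exact permutation test, p = 0.333). Shorter in both SETD5 libraries were 46 of 74 members (62.2%; background 30.0%), and longer were 3 (background 11.8%). All protein-coding genes had 2500 ± 141 against 3000 ± 283 bp, also without overlap. At 0 h the difference was 150.0 bp with overlapping libraries (two-sided exact permutation test, p = 0.667), with 6 members longer (background 14.5%) and 11 shorter (background 13.1%). The comparison of times in empty vector cells and that of cells at 48 h use the same empty vector 48 h libraries, so a long value there enters both. SETD5 cells also had more islands per list at 48 h (39068 and 39451, against 31292 and 33131). The part of this in the length difference was not tested. The alternative of equal island numbers gave the same -950.0 bp. It kept 31000 islands of each list at their called lengths, so it cannot decide this.

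**Figure D4:**
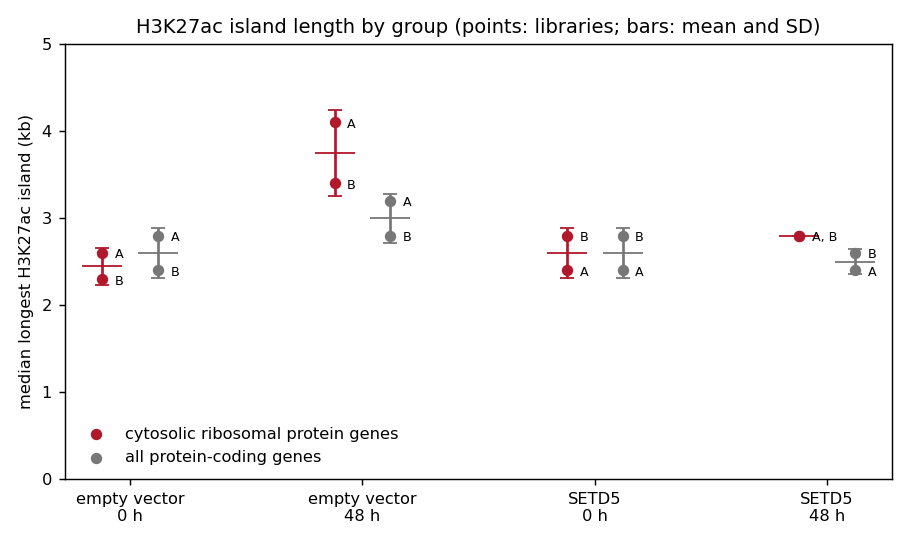
Median length (kb, vertical axis, from 0) of the longest H3K27ac island at overlapped genes, 1 point per library (A, B) with the mean and SD of 2, for ribosomal protein genes and all protein-coding genes. Empty vector at 48 h is the only group in which both ribosomal protein values, 4100 and 3400 bp, are above those of the other 3 groups.

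The largest positive differences in empty vector cells were at large-subunit genes. Rpl37a had 2000 and 1800 bp at 0 h and 13600 and 15800 bp at 48 h, and in SETD5 cells 1400 and 2600 bp at 0 h and 15400 and 16200 bp at 48 h. All 48 h values were above all 0 h values in both kinds of cells, and each 48 h island began just before the gene start and ran past the gene end without reaching another protein-coding gene. Rpl11, which with Rpl5 binds 5S rRNA and Mdm2, had 2200 and 1600 bp at 0 h and 13200 and 10600 bp at 48 h in empty vector cells. In SETD5 cells it had 2600 and 3600 bp at 0 h and 4600 and 4000 bp at 48 h, and both 48 h islands lay upstream of the gene body. Rpl11 thus had the largest shortfall in SETD5 cells at 48 h, -7600.0 bp, while Rpl37a differed by 1100.0 bp, within the spread of its libraries.

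Rpl9 went from 2000 and 2200 to 5800 and 7400 bp in empty vector cells, and Rps28 from 2000 and 2200 to 7000 and 5400 bp. Rps18 went from 4000 and 3000 to 7800 and 6800 bp. In SETD5 cells at 48 h Rps28 had 2600 and 3400 bp and Rps18 had 4200 and 5400 bp, below both empty vector libraries. Rpl37 had 7800 and 5600 bp in empty vector and 2800 and 3200 bp in SETD5 cells at 48 h. Rpl23a, also at the exit of the nascent chain, had 8800 and 5600 against 4400 and 4200 bp. Rps2 had 3200 and 7400 against 2200 and 2400 bp, with the 2 empty vector libraries far apart and both above SETD5 cells.

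Few members went the other way. Rpl3 had 11000 and 10800 bp at 0 h and 6000 and 6400 bp at 48 h in empty vector cells, and its long 0 h island lay past the gene end, overlapping the 2 kb flank and running on beyond it. Rpl3l went from 2600 and 2400 bp to 2200 and 1800 bp. Longer in SETD5 cells at 48 h were Rpl27a (9600 and 12200 against 8600 and 9000 bp), Rpl31 (4600 and 4800 against 4000 and 2400 bp) and Rpl30 (5400 and 6800 against 5200 and 4800 bp). Over the gene end, H3K27ac went from 27.6% ± 5.58 to 50.7% ± 8.37 of members in empty vector cells and from 30.3% ± 3.72 to 33.6% ± 0.930 in SETD5 cells. In empty vector cells the short start-acetylated genes were at 46.5% and 40.3% at 0 h and 48.1% and 42.7% at 48 h, and all protein-coding genes at 9.21% and 8.03%, then 10.4% and 9.72%.

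Other genes of translation were read from lists set by name. The 6 further cytosolic ribosomal protein genes outside the symbol rule (among them Rplp0, Rplp1, Rplp2 and Rpsa) had SETD5-V5 in both 6 h lists at 6 of 6 and endogenous SETD5 at 6 h at 6 of 6. Of 15 translation factor genes, among them the elongation factors Eef1a1 and Eef2, 14 had SETD5-V5 in each 6 h list (Eif3f in none) and 11 had endogenous SETD5, with a median mean length of 20650 bp against 11900 bp at members. Of 15 ribosome biogenesis genes, such as Ncl (nucleolin) and Fbl (fibrillarin), 10 had SETD5-V5 in both 6 h lists and 5 had endogenous SETD5. Wdr12, Fbl and Pes1 had SETD5-V5 in the 6 h A list only (13 of 15 genes had it there), and Rrn3 and Dkc1 had it in none.

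The 76 genes of the mitochondrial ribosome (Mrpl and Mrps) had SETD5-V5 at 58 (76.3%) in 6 h A and 28 (36.8%) in 6 h B, and in both lists at 27 (35.5%), which list B sets. All protein-coding genes were at 49.9% in A and 34.3% in B, and start-acetylated genes at 85.8% and 60.2%. The cytosolic set was above the mitochondrial one in each list (97.4% against 76.3% in A and 94.7% against 36.8% in B), and no test was run on this difference. Endogenous SETD5 was at 8 mitochondrial genes (10.5%) at 6 h, and 64 (84.2%) had H3K27ac in all 8 lists.

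**Figure D5:**
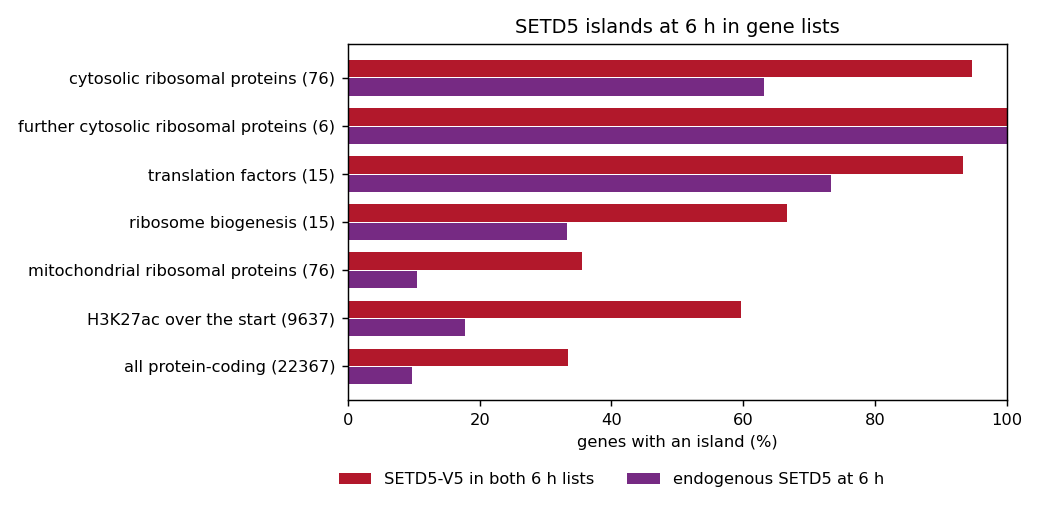
Share of genes (%, horizontal axis, from 0) with SETD5-V5 in both 6 h lists (upper bars) and with endogenous SETD5 at 6 h (lower bars) in each gene list, with the number of genes in parentheses. Cytosolic ribosomal protein genes are at 94.7% and 63.2%, mitochondrial ribosomal protein genes at 35.5% (76.3% in list A alone) and 10.5%, and all protein-coding genes at 33.4% and 9.79%.

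Copies of these genes elsewhere were mostly without islands. Of 151 pseudogenes with a ribosomal protein symbol ending in -ps and a number, SETD5-V5 overlapped 12 (7.95%) in A and 8 (5.30%) in B at 6 h, and endogenous SETD5 overlapped 4. Of the 108 that lay away from other genes, 7 and 6 had SETD5-V5. Reads from exons that are near-identical between a gene and its copies can be placed on either, and their treatment is not given in the sources used here, so values at single members with such copies are uncertain. Small nucleolar RNA genes lay inside 28 of 76 members (36.8%; all protein-coding genes 2.12%). The median of the mean 6 h SETD5-V5 length was 13150 bp at these hosts and 9750.0 bp at the other members, and endogenous SETD5 was at 21 of 28 hosts and 27 of 48 others. Hosts were also higher over all protein-coding genes, where the medians, with absent islands as 0, were 4300 bp at 475 hosts and 500 bp at the other genes. Over all 22367 genes endogenous SETD5 was at 103 of the 475 hosts and at 2087 of the others.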

How the data were processed

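ChIP-seq was run by the authors on 16 libraries of 3T3-L1 cells with 16364976 to 25915409 total reads for H3K27ac, 43312378 to 60284005 for SETD5-V5, 31629740 to 31875156 for H3K4me1 and 30014330 to 35051923 for endogenous SETD5, as the labels give them. The submitters' processing notes name Bowtie2, SICER, deepTools and the build mm9, with no versions in the notes used here. The study's methods give ELAND or Bowtie2 for mapping and SICER or SICER2 for the islands, with a wider allowed gap for SETD5 than for H3K27ac and H3K4me1. Islands were called by the authors per library, without pooling replicates, on a 200 bp grid. The deposited lists give chromosome, start, end and a score per island, which the authors' caller assigned and which served here only for ranks and a filter inside each list. Because they give no reads per island, the precision of a single island is unknown, and gaps between islands depend on depth and on the caller's settings.

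Gene positions came from GENCODE vM1 on mm9. Islands were joined to genes with Python 3.11.15 and NumPy 2.4.6, by an overlap of at least 1 base with the gene body and 2 kb each side, and the counts were checked against bedtools 2.31.1 and tested on simulated data. For each gene the longest overlapping island was kept. Each library gave 1 value over the members, and groups were compared by the mean and SD of 2 libraries and a two-sided exact permutation test (SciPy 1.17.1). The study describes the 2 libraries as biological replicates, and p-values measure only the spread between these samples. A gene was called longer or shorter when both libraries of a group were above or below both of the other, among genes present in all 4 lists. Named genes were, by mean 6 h SETD5-V5 length, the first 12 members with SETD5-V5 in both 0 h lists or with endogenous SETD5, the 10 longest with it in both 6 h lists and the 6 longest gained, then members without H3K27ac in empty vector, members gaining or losing H3K27ac (0), and up to 5 called longer and 5 called shorter in H3K27ac for time in empty vector and for cells at 48 h. Others are named to account for small counts, and some members that the rule names are not reported here. Members, gene lists and rules were chosen with earlier results of these data known. Alternatives were another overlap rule, a score filter, equal numbers of islands, the gene body alone, 1 kb at the start, other member sets, covered bases, leaving out each replicate, and a replicate block. Promoter sequence was read from the mm9 genome.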

Additional observations from a re-analysis of the deposited data

How the results depend on the processing

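Across 13 results and 141 alternatives, 1 value turned its sign and 10 moved beyond the replicate spread or the count limit. The other 130 did not turn the sign (some were 0), which for the tested differences says nothing of their size. The SETD5-V5 length difference of 5700 bp was 2504 bp when only island bases inside the interval were counted, and the H3K4me1 share difference of 7.89 points was 0 with 1 kb each side of the start. The 4 differences in the H3K27ac share of members are 0 as reported. With islands above the median score of their list they were 1.32 percentage points (48 h minus 0 h, empty vector), 0.658 (48 h minus 0 h, SETD5 cells), 1.32 (SETD5 minus empty vector, 0 h) and 0.658 (SETD5 minus empty vector, 48 h). With 1 kb each side of the gene start they were 1.32, -0.658, 1.32 and -0.658 points in the same order, and leaving out a replicate left them at 0. The count of members gaining SETD5-V5 was 18 as reported, 29 with 1 kb each side of the start, and 21 to 46 when a replicate was left out, the 46 without replicate A, where 0 h is read from list B alone. The H3K27ac length difference between SETD5 and empty vector at 0 h, 150.0 bp as reported, ranged from -200.0 bp without replicate B to 500 bp without replicate A.

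Leaving out a replicate gave 27.6 to 60.5 points for the SETD5-V5 share, 5300 to 6100 bp for its length, 1100 to 1500 bp for H3K27ac length in empty vector cells, 0 to 400 bp in SETD5 cells and -1300 to -600 bp for SETD5 minus empty vector at 48 h. With 1 library per group these have no test. With the letters A and B as a replicate block, each mean difference is the same by construction (44.1 points and 5700 bp for SETD5-V5), and 2 pairs allow no p below 0.500 in the sign-flip test. The letters pair the samples in name only. The alternative restricted to members with no other protein-coding gene in the interval was added after seeing the data. It gave 51.3 points and 5200 bp for SETD5-V5, -1100 bp for H3K27ac at 48 h and 12 gained members.

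Depth is known per library only, and an island missing from a list was below that library's threshold at its depth. The smallest p for 2 against 2 libraries is 0.333.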

Other observations

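Ranks of member H3K27ac islands by the caller's score are given within each list, since the lists differ in length, and are not read between lists. In empty vector cells the median member had 24.9% (A) and 25.4% (B) of the islands of its list above it at 0 h and 14.0% and 15.6% at 48 h. For the median overlapped gene these were 27.7% and 28.6% at 0 h and 24.9% and 26.4% at 48 h. In SETD5 cells the members were at 18.6% and 20.6% at 0 h and 15.1% and 14.2% at 48 h, and the median gene at 23.4% and 25.4% and then 22.3% in both.

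An H3K27ac island held the whole gene body at 12 and 4 members in empty vector cells at 0 h and at 27 and 23 at 48 h, and at 3 and 9, then 11 and 11, in SETD5 cells. Both 48 h libraries of empty vector cells were above the 6 others. In empty vector library A the member share rose from 15.8% before induction to 35.5% after it, and in library B from 5.26% to 30.3%. The 1242 short start-acetylated genes went from 29.7% to 32.4% in A and from 23.6% to 28.3% in B. Members were thus below these genes before induction and close to their level after it. In SETD5 cells members were at 14.5% in each library after induction, below the short start-acetylated genes (24.7% in A, 26.9% in B). The presence calls of the 2 replicates were the same at all 76 members for H3K27ac in each of 4 groups, at 74 for SETD5-V5 at 6 h and at 47 for SETD5-V5 at 0 h.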
